A study of Mus musculus with 9 samples.

Results

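Lag3 encodes LAG-3, an inhibitory receptor of T cells, and is described here across the 9 libraries of a comparison of IL27ra KO with WT CD8+ T cells from tumours. It is 1 of the 23366 gene symbols in the table and was chosen by its measured level, as the inhibitory receptor with the most reduced RNA in IL27ra KO libraries, so its own difference between the genotypes, and its ratios to Cd3e and Cd8a, are given as a description without a test. The IL27ra KO group had 4 libraries of CD8+ T cells from B16F10 tumours, a transplanted mouse melanoma, grown in C57BL/6 mice whose labels give the IL27ra KO genotype. The WT group had 5 libraries of the same cells and tumour from C57BL/6 mice labelled wild type. The labels do not state age, sex, time after tumour injection or the way the cells were isolated, and neither do they state the part of Il27ra that was disrupted or whether libraries of a group came from separate mice. The p-values therefore measure only how much these libraries vary, which may be technical variation.

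LAG-3 belongs to the immunoglobulin superfamily, is a close relative of CD4 and, like CD4, binds MHC class II molecules. Activated T cells put it on their surface, T cells exposed to antigen for long, as in tumours, keep it together with PD-1 and TIM-3, and it dampens signalling from the T cell receptor. FGL1, galectin-3 and LSECtin have been described as further ligands, and the proteases ADAM10 and ADAM17 cut LAG-3 from the cell surface. Regulatory T cells, natural killer cells and plasmacytoid dendritic cells can also carry it. The interleukin 27 receptor pairs the chain encoded by Il27ra with gp130 and signals through JAK kinases to STAT3.

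Values are FPKM, fragment numbers scaled for transcript length and library size, after the authors' TMM scaling. From the spacing of low values, library sizes after that scaling were about 1730000 to 4070000 fragments, which may differ from the numbers sequenced. Genes above 0 numbered 13111 to 14358 per library. Across the 10374 genes tested, Spearman correlations between libraries were 0.79 to 0.951, which describes the libraries over genes that are not independent. Il27ra, the targeted gene, had 4.09, 6.50, 5.62 and 7.80 FPKM in IL27ra KO replicates 1 to 4. It had 25.7, 15.2, 14.4 and 15.8 FPKM in the libraries labelled WT replicates 1, 3, 4 and 5, but 5.14 FPKM in the library labelled WT replicate 2. That library lay among the IL27ra KO values, against its label, and the Il27ra difference of -1.10 log2 units (SE 0.34) did not pass (limma, adjusted p = 0.0996), whereas it was -1.42 and passed when that library was left out. Markers of CD8 T cells and of macrophages also moved with genotype. The mean log2(FPKM + 1) of 15 CD8 T cell identity genes was 4.83, 5.30, 5.11 and 6.11 in the IL27ra KO libraries, in replicate order, and 5.82 to 6.34 in WT libraries. The mean of 15 macrophage and monocyte genes was 5.30, 4.99, 5.44 and 3.85 in IL27ra KO libraries and 1.18 to 2.90 in WT libraries, with 15 of 15 called higher in IL27ra KO and their summed level at 448 to 1576 FPKM against 69.6 to 340.03 FPKM. IL27ra KO replicate 4 thus had CD8 identity RNA within the WT range and less macrophage RNA than the other IL27ra KO libraries.

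Lag3 was at low level in all 4 IL27ra KO libraries, with 1.96, 2.21, 3.57 and 2.34 FPKM in replicates 1 to 4. In WT libraries it had 29.1, 94.1, 26.8, 19.4 and 61.6 FPKM in replicates 1 to 5. The groups did not overlap, the lowest WT library being 5.43-fold above the highest IL27ra KO library, and 2.47% of all genes tested had every IL27ra KO value below every WT value. Lag3 averaged 2.52 ± 0.72 FPKM in IL27ra KO libraries (SD, n = 4) and 46.2 ± 31.3 FPKM in WT libraries (SD, n = 5), means that differ by 18.3-fold. As log2(FPKM + 1), a scale that shrinks the differences of low values, the difference was -3.53 with a pooled SD of 0.72. Without the library labelled WT replicate 2, which carried the highest Lag3 value although its Il27ra level went against its label, the WT mean was 34.2 ± 18.7 FPKM (SD, n = 4), the means differed by 13.6-fold and the log2 difference was -3.21.

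The rank of Lag3 within a library does not depend on how libraries were scaled to each other. Ranked among the 10374 genes tested, Lag3 was at place 8853, 8402, 6926 and 8086 in IL27ra KO replicates 1 to 4, in the lower part of the list. In WT replicates 1 to 5 it was at place 1035, 440, 1061, 1537 and 484, within the top 14.8% in each. An estimated 15, 15, 18 and 16 fragments lay behind the IL27ra KO values, so that counting alone gives each an error of 23.6% to 25.9% of its value. The WT values rested on an estimated 202, 426, 93, 90 and 501 fragments, with counting errors of 4.47% to 10.5%. The estimates take a transcript of 2001 bases and whole fragments, and amplification by PCR without molecular identifiers adds error that they do not cover.

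Spread between libraries differed as well. WT values of Lag3 ranged over 4.85-fold and had a coefficient of variation of 67.7%, while IL27ra KO values ranged over 1.82-fold with a coefficient of variation of 28.5%, which is close to the counting error. Among 1067 genes with a WT mean between 23.1 and 92.4 FPKM, the median coefficient of variation over the WT libraries was 30.4%, and that of Lag3 was above 96.3% of them. The WT order of Lag3, from high to low, was replicates 2, 5, 1, 3 and 4. Replicates 1 and 3, at 29.1 and 26.8 FPKM, did not differ beyond their counting error, whereas replicates 2 and 5 stood above the other WT libraries.

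**Figure D1:**
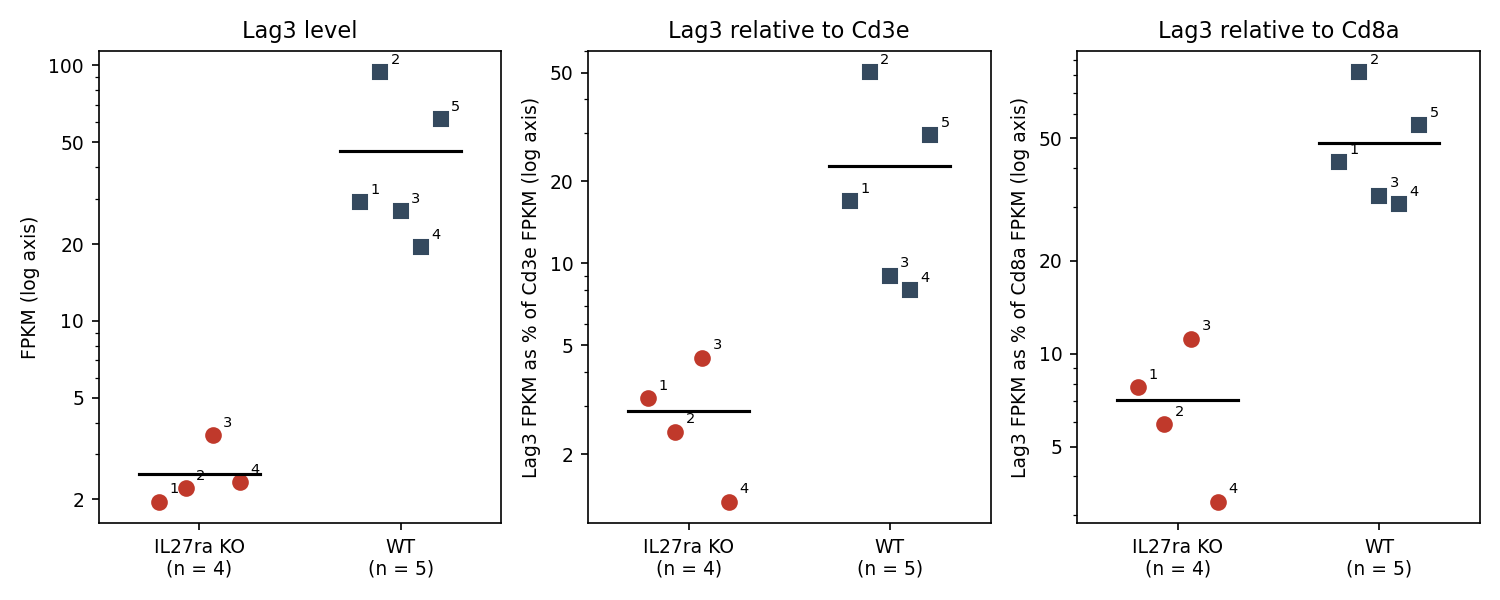
Lag3 in each library, as FPKM (left), as a percentage of Cd3e FPKM (middle) and as a percentage of Cd8a FPKM (right), each on a log axis; circles are the 4 IL27ra KO libraries, squares the 5 WT libraries, numbers are replicates and bars are group means. All IL27ra KO values lie below all WT values in the 3 panels, by the least margin relative to Cd3e, where the lowest WT library is 1.77-fold above the highest IL27ra KO library.

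Cd3e, which encodes a CD3 chain, and Cd8a, a chain of the CD8 coreceptor, give Lag3 relative to T cell RNA of the same library, so that library scaling cancels. Cd3e had 61.3, 91.5, 79.2 and 175 FPKM in IL27ra KO replicates 1 to 4, against 172, 188, 298, 243 and 209 FPKM in WT replicates 1 to 5. Cd8a had 25.2, 37.4, 31.9 and 70.7 FPKM in IL27ra KO libraries and 69.8, 115, 82.3, 63.4 and 112 FPKM in WT libraries. IL27ra KO replicate 4 overlapped the WT values of both genes. In this kind of bulk sample, fewer cells of a type and less RNA per cell cannot be told apart.

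Relative to Cd3e, Lag3 remained lower in IL27ra KO libraries. It was 3.20%, 2.42%, 4.51% and 1.34% of the Cd3e level in IL27ra KO replicates 1 to 4. The WT libraries had 16.9%, 50.1%, 9.0%, 7.97% and 29.5%. The group means were 2.87% ± 1.34 (SD, n = 4) and 22.7% ± 17.6 (SD, n = 5), a 7.93-fold difference of means and -2.77 in the mean log2 ratio. Without the library labelled WT replicate 2 these were 15.9% ± 9.96 in WT libraries (SD, n = 4), 5.53-fold and -2.40. The margin between the groups was narrowest here, since WT replicates 3 and 4 had the highest Cd3e levels with the lowest Lag3 levels of the WT group. Cd3d and Cd3g, genes of further CD3 chains, were instead lowest of the WT group in these libraries. Cd3d had 88.1 and 82.6 FPKM there, and Cd3g 122 and 108 FPKM. Relative to Cd3g, Lag3 was 17.9% to 31.6% in WT libraries and at most 5.40% in IL27ra KO libraries. The wide WT range relative to Cd3e was thus not shared by Cd3g. Its cause was not tested. Rn45s took its largest shares of summed FPKM in WT replicates 3 and 4. Whether that bears on their Lag3 or Cd3e levels was not tested.

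Relative to Cd8a, the picture was alike but the WT libraries lay closer together. Lag3 was 7.79%, 5.92%, 11.2% and 3.31% of the Cd8a level in IL27ra KO libraries. It was 41.7%, 81.9%, 32.6%, 30.6% and 55.2% in WT libraries. The means were 7.05% ± 3.32 (SD, n = 4) and 48.4% ± 21.1 (SD, n = 5), which differ by 6.86-fold, and the mean log2 ratio differed by -2.81. Without the library labelled WT replicate 2 the WT mean was 40.03% ± 11.2 (SD, n = 4), the fold 5.67 and the log2 difference -2.60. With all libraries, the 18.3-fold difference in Lag3 FPKM was therefore 7.93-fold per Cd3e and 6.86-fold per Cd8a.

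Of the 15 CD8 T cell identity genes, 13 are neither Cd3e nor Cd8a. Against each of these 13, the Lag3 ratio was lower in every IL27ra KO library than in every WT library, with log2 differences from -5.25 to -2.87 and a median of -3.25. The ratios share their libraries and the Lag3 value, so they are not separate tests. The lowest WT value of Lag3 was already 5.43-fold above its highest IL27ra KO value, which favours such a separation. The share of all genes that would give it was not computed, so the count is a description. IL27ra KO replicate 4, with CD8 identity RNA in the WT range, had 2.34 FPKM of Lag3, which is 8.29-fold below the lowest WT library and 19.7-fold below the WT mean. Its Lag3 ratios to Cd3e and Cd8a were the lowest of the 9 libraries.

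**Figure D2:**
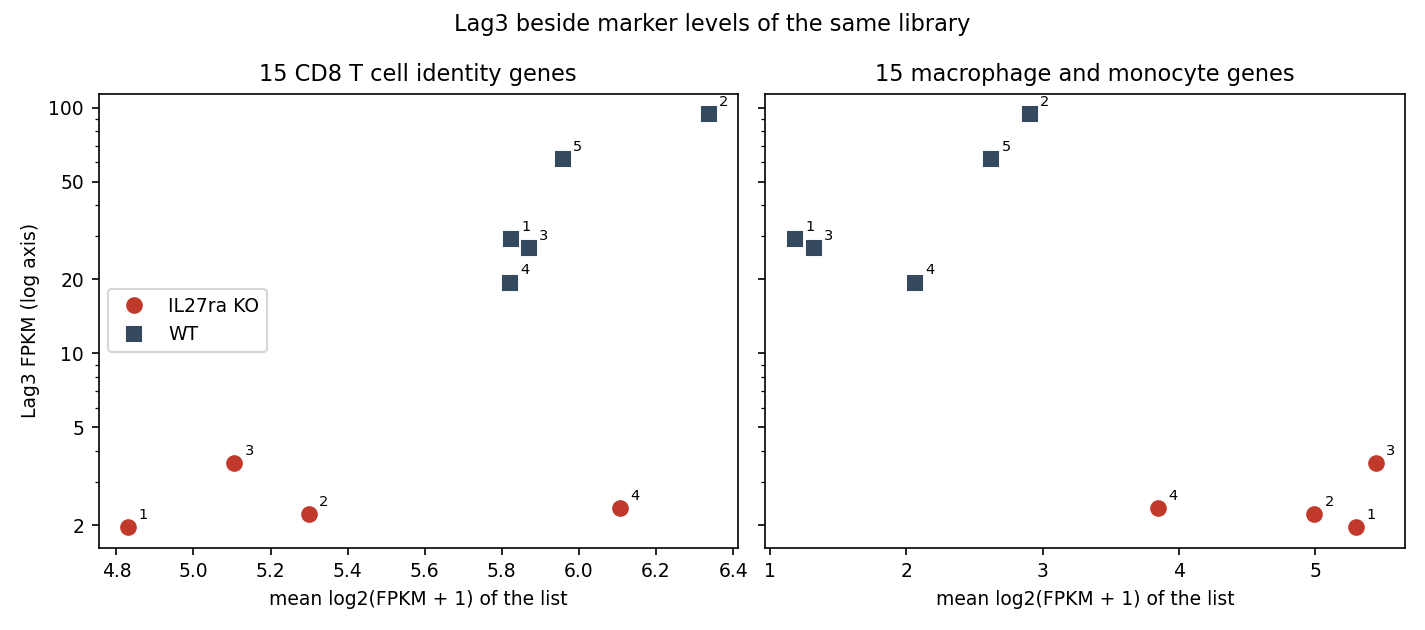
Lag3 FPKM (log axis) of each library against the mean log2(FPKM + 1) of 15 CD8 T cell identity genes (left) and of 15 macrophage and monocyte genes (right); circles are IL27ra KO libraries, squares WT libraries and numbers replicates. On the left, IL27ra KO replicate 4 sits at 6.11, inside the WT range of 5.82 to 6.34, with 2.34 FPKM of Lag3; on the right, all IL27ra KO libraries lie above all WT libraries in macrophage RNA.

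Markers of other cells that can carry LAG-3 were at low levels in both groups. Foxp3, the defining factor of regulatory T cells, had 0.54, 0.52, 1.07 and 0.55 FPKM in IL27ra KO libraries and 5.53, 0.00, 2.56, 1.16 and 4.70 FPKM in WT libraries, and did not pass (limma, adjusted p = 0.369). Cd4 had at most 0.13 FPKM in IL27ra KO libraries and at most 0.45 FPKM in WT libraries. The library labelled WT replicate 2, with the most Lag3, had Foxp3 and Cd4 at 0. The summed level of 5 markers of regulatory and CD4 T cells was 2.28 to 5.24 FPKM in IL27ra KO libraries and 5.34 to 12.2 FPKM in WT libraries. These sums were apart only narrowly, at 5.24 FPKM in IL27ra KO replicate 4 and 5.34 FPKM in the library labelled WT replicate 2. Much of both was Il2ra, with 2.72 and 3.37 FPKM, a gene also counted below among receptors induced by activation. How often sums of other genes part in this way was not computed. Whether regulatory or CD4 T cells added to the Lag3 values was not tested. The summed level of 5 natural killer cell markers was 3.55 to 9.86 FPKM in IL27ra KO libraries and 4.62 to 14.3 FPKM in WT libraries. That of 5 markers of plasmacytoid dendritic cells was 1.97 to 3.38 FPKM and 0.41 to 3.29 FPKM, with Cox6a2 at 0 in all libraries. Of 6 B and plasma cell markers, Ms4a1 and Igj were at 0 in all libraries and the sums were 3.65 to 5.09 FPKM and 0.85 to 3.13 FPKM. Few genes of these 4 lists reached the level to be tested, 3 of 5, 2 of 5, 1 of 5 and 2 of 6. Of them 0 passed in the limma test, and 2, 0, 0 and 1 had an unadjusted p under 0.05. Melanoma genes were present in both groups, 541 to 1274 FPKM in sum in IL27ra KO libraries and 354 to 1162 FPKM in WT libraries, and 0 of 7 passed (limma; 2 with an unadjusted p under 0.05).

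Around LAG-3, 93 genes in 8 lists of ligands, processing, receptors and regulators were examined, of which 86 were expressed highly enough to be tested. Of all 10374 genes tested, 4.24% were called (limma, adjusted p under 0.05), 1.11% lower and 3.13% higher in IL27ra KO. Among the 86 genes 31 were called, 19 lower and 12 higher, and their median log2 difference was -0.28 against 0.02 over all genes. The lists were drawn up with earlier results of these data known, so the counts are a description. Leaving out 1 library gave between 14 calls, without IL27ra KO replicate 1, and 40, without IL27ra KO replicate 4, while the calls over all genes went to 242 and 632 from 440. The count was 16 without IL27ra KO replicate 2 or 3, with 268 and 226 calls over all genes. With all libraries scaled to equal totals, the split was 9 lower and 14 higher, beside 65 lower and 525 higher over all genes. Scaled to the CD8 identity list it was 8 lower and 18 higher, beside 51 lower and 787 higher over all genes. Without these scalings it was 115 lower and 325 higher over all genes. Without the library labelled WT replicate 2, 32 of the 86 were called, against 4.78% of all genes tested, 1.42% lower and 3.36% higher. Without it and IL27ra KO replicate 4 the count was 46, against 8.37% of all genes tested, 3.02% lower and 5.35% higher. With a covariate for the level of the macrophage list, which runs with genotype, 0 of the 86 passed in limma and 28 had an unadjusted p under 0.05, against 7 and 1235 of all 10374 genes.

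**Figure D3:**
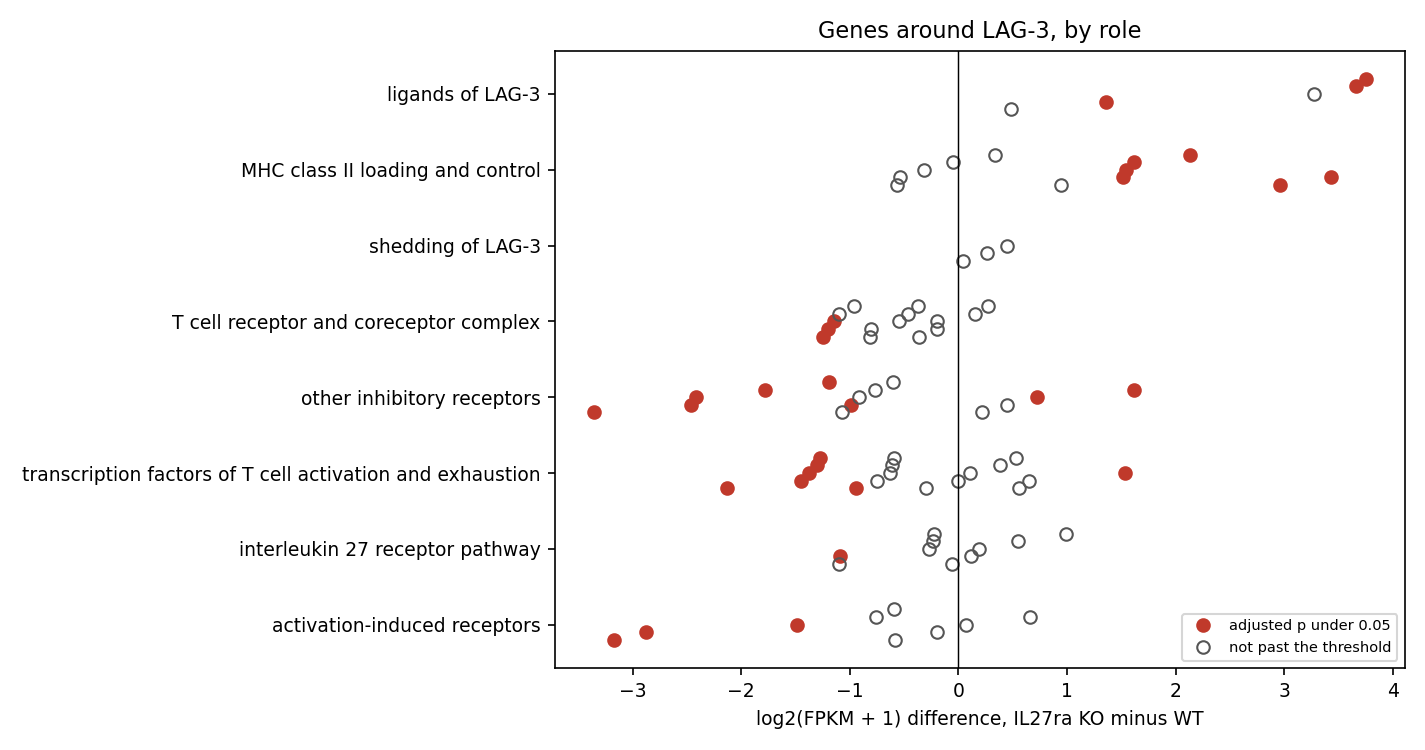
Difference in log2(FPKM + 1), IL27ra KO minus WT, of each tested gene in 8 lists around LAG-3, 1 row per list; filled points passed (limma, adjusted p under 0.05), open points did not. Calls among ligands and MHC class II genes are all to the right, those of the T cell receptor and activation lists all to the left.

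Genes of LAG-3 ligands were called higher in IL27ra KO libraries or did not pass, and none was called lower. Of 7 ligand genes 5 were tested and 3 rose, with a median log2 difference of 3.28. H2-Aa, the alpha chain of the class II molecule I-A, had 404, 277, 404 and 78.6 FPKM in IL27ra KO replicates 1 to 4, against 2.70, 116, 3.20, 26.7 and 52.4 FPKM in WT replicates 1 to 5. It rose by 3.67 log2 units (SE 0.90; limma, adjusted p = 0.0344). H2-Ab1, the beta chain of I-A, had 570, 385, 599 and 129 FPKM in IL27ra KO libraries and 5.57, 145, 3.35, 42.9 and 74.4 FPKM in WT libraries. It rose by 3.76 log2 units (SE 0.89; limma, adjusted p = 0.0283). IL27ra KO replicate 4 overlapped the library labelled WT replicate 2 for both genes, and WT replicates 1 and 3 had almost no class II RNA. H2-Eb1, the beta chain of I-E, had 164, 102, 167 and 30.7 FPKM in IL27ra KO libraries and 1.56, 62.3, 1.03, 10.7 and 25.9 FPKM in WT libraries, a difference of 3.28 that did not pass (limma, adjusted p = 0.0520). The calls of H2-Aa and H2-Ab1 were lost without IL27ra KO replicate 1, 2 or 3 or WT replicate 1 or 3 (limma, highest adjusted p = 0.121 and 0.105). Macrophage markers moved with these genes, and with the marker level as a covariate the differences of H2-Aa and H2-Ab1 turned to -3.07 and -2.76. The covariate runs with genotype, so this fit cannot tell macrophage level from genotype.

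Lgals3, the gene of galectin-3, had 112, 94.5, 114 and 133 FPKM in IL27ra KO libraries, against 36.3, 80.5, 29.3, 33.9 and 51.7 FPKM in WT libraries. Its groups did not overlap, as in 4.26% of all genes tested on the higher side, and the rise of 1.36 log2 units (SE 0.27; limma, adjusted p = 0.0110) passed whichever library was left out (highest adjusted p = 0.0452). Macrophage markers moved with Lgals3, and with the macrophage covariate its difference was 0.45 and did not pass (limma, adjusted p = 0.768). The covariate runs with genotype, so this fit cannot tell macrophage level from genotype. Fgl1, the gene of a secreted fibrinogen-like protein made in liver, was listed at 0 in every library but IL27ra KO replicate 1, with 0.23 FPKM. Clec4g, the gene of LSECtin, was likewise above 0 in IL27ra KO replicate 1 alone, with 0.63 FPKM.

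**Figure D4:**
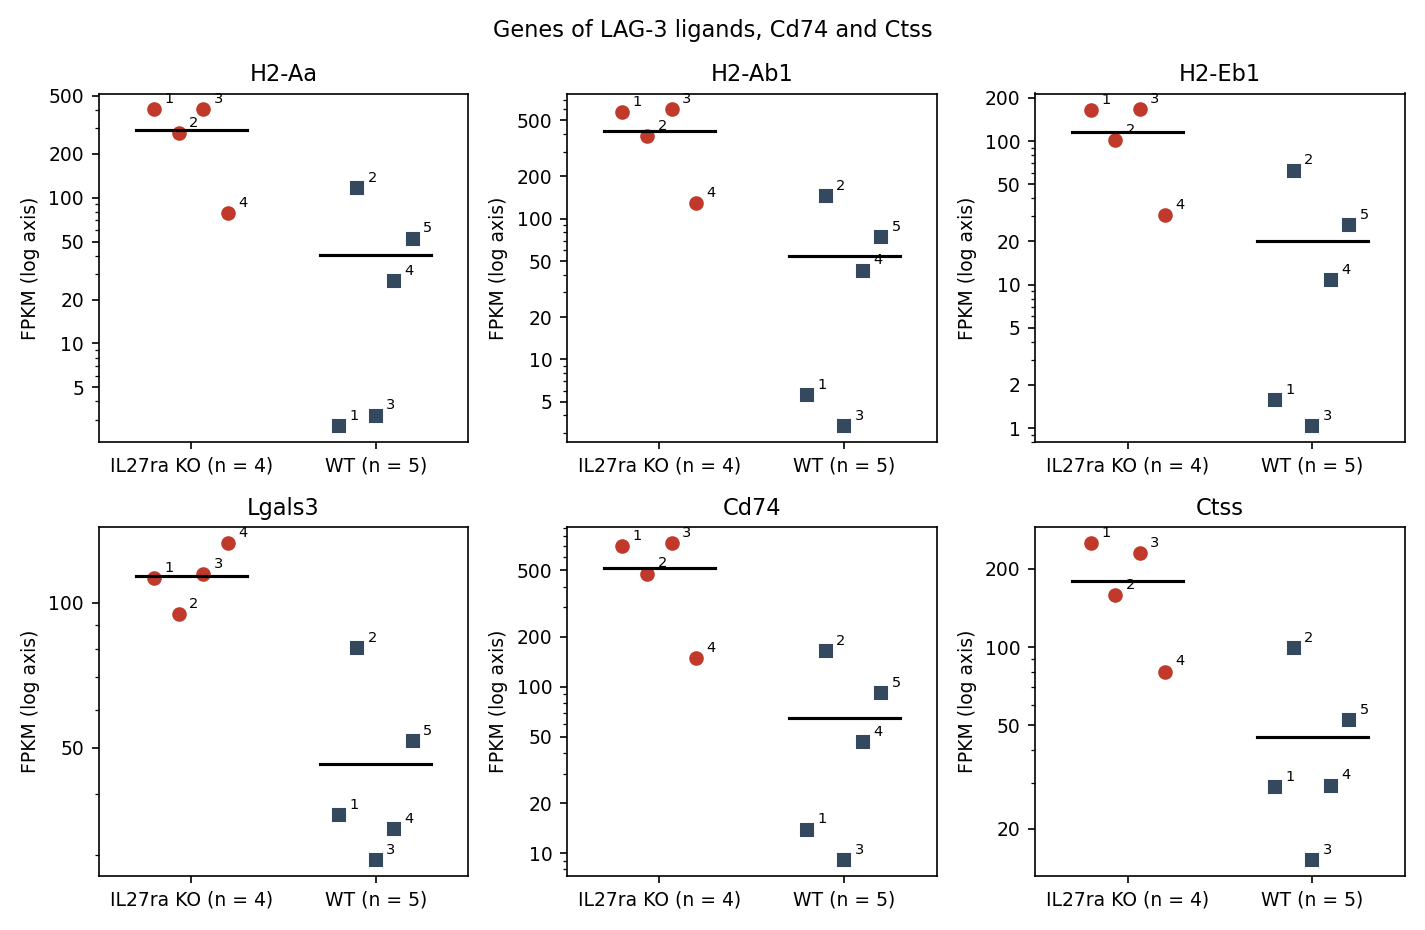
FPKM (log axis) of 4 genes of LAG-3 ligands and of Cd74 and Ctss in each library, with circles for the 4 IL27ra KO libraries, squares for the 5 WT libraries, numbers for replicates and bars for group means. Only Lgals3 has no overlap between the groups; the genes of class II chains range from 1.03 to 145 FPKM over the WT libraries.

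Of 12 genes of MHC class II loading and control, 6 rose, 0 fell and 6 did not pass, with a median log2 difference of 1.23. Macrophage markers moved with the 6 that rose. With the macrophage covariate, the differences of Cd74, H2-DMb1, H2-DMa, Ctss and Ciita turned to -2.05, -0.83, -1.18, -0.99 and -0.41. The covariate runs with genotype, so this fit cannot tell macrophage level from genotype. Of 7 conventional dendritic cell markers 4 were tested. Cd209a and Itgax rose by 2.34 and 1.84 (limma, adjusted p = 0.0169 and 0.00395), while Zbtb46 and Ccr7, at -0.25 and 0.04, did not pass. Cd74, the invariant chain that guides class II molecules to the loading compartment, rose by 3.43 log2 units (SE 0.73; limma, adjusted p = 0.0157). H2-DMb1, a chain of the peptide exchange factor, rose by 2.97 (SE 0.55, adjusted p = 0.00647), and its groups did not overlap. Ctss, the protease that trims the invariant chain, rose by 2.13 (SE 0.46, adjusted p = 0.0177), and Ciita, the master regulator of class II transcription, rose by 1.52 (SE 0.34, adjusted p = 0.0196). H2-DMa and H2-DMb2, further chains of the exchange factor, rose by 1.55 and 1.62 (limma, adjusted p = 0.0362 and 0.0205); both H2-DMb genes are near copies and their separate values are uncertain. Rfx5, Rfxap and Rfxank, which bind class II promoters in all cells, had differences of -0.32, -0.05 and -0.53 and did not pass. Neither did H2-Oa and H2-Ob, chains of an inhibitor of the exchange factor, at -0.56 and 0.34, nor Ifi30, a reductase of the loading compartment, at 0.95. The calls of Cd74, Ctss and Ciita were lost without IL27ra KO replicate 1, 2 or 3 (limma, highest adjusted p = 0.0644, 0.0748 and 0.0898), and that of Ciita also without WT replicate 1. The calls of H2-DMa and H2-DMb2 were lost on leaving out 1 library in 6 and 4 of 9 cases (at most 0.148 and 0.0933, without IL27ra KO replicate 3).

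Genes of LAG-3 shedding showed no call. Adam10 averaged 20.1 ± 1.16 FPKM in IL27ra KO libraries (SD, n = 4) and 17.6 ± 5.89 FPKM in WT libraries (SD, n = 5), with a difference of 0.26 log2 units (SE 0.26; limma, adjusted p = 0.718). Adam17 averaged 12.5 ± 2.44 FPKM and 9.03 ± 2.23 FPKM, with a difference of 0.45 (SE 0.22; limma, adjusted p = 0.376). Rhbdf2, which brings ADAM17 to the surface, averaged 3.90 ± 0.79 FPKM and 3.74 ± 0.73 FPKM (0.04, SE 0.19; limma, adjusted p = 0.950). Of the 3 genes tested 0 passed, and 0 had an unadjusted p under 0.05. Rhbdf1 and Timp3, an inhibitor of ADAM17, lay below the level to be tested, at 0.49 to 2.03 and 0.00 to 0.42 FPKM in IL27ra KO libraries and 0.00 to 1.18 and 0.10 to 2.04 FPKM in WT libraries.

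Of 15 tested genes of the T cell receptor and coreceptor complex, 3 fell, 0 rose and the median log2 difference was -0.55. Cd3e fell by 1.2 log2 units (SE 0.29; limma, adjusted p = 0.0317), Cd8a fell by 1.15 (SE 0.29, adjusted p = 0.0421) and Cblb, a ubiquitin ligase that restrains T cell receptor signalling, fell by 1.25 (SE 0.27, adjusted p = 0.0170). The kinases Lck and Zap70 had differences of -0.46 and -0.96 and did not pass, and Lat had -0.19. The phosphatases Ptpn6 and Ptpn11, at 0.16 and -0.19, did not pass either. These 3 calls were not stable. On leaving out 1 library that of Cd3e was lost in 6 of 9 cases, that of Cd8a in 7 and that of Cblb in 4 (limma, adjusted p up to 0.143, 0.174 and 0.0795, each without IL27ra KO replicate 1). All 3 were also lost with libraries scaled to equal totals or to the CD8 identity list, and with the macrophage covariate.

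Several other inhibitory receptors were lower in IL27ra KO libraries. Of 14 tested, 6 fell, 2 rose and 6 did not pass, with a median log2 difference of -0.96. Pdcd1, the gene of PD-1, had 3.22, 7.43, 10.4 and 12.2 FPKM in IL27ra KO replicates 1 to 4, against 67.2, 157, 71.6, 49.7 and 129 FPKM in WT replicates 1 to 5, a fall of 3.36 log2 units (SE 0.38; limma, adjusted p = 0.00048). Havcr2, the gene of TIM-3, had 2.57, 2.80, 3.37 and 4.79 FPKM in IL27ra KO libraries and 16.6, 36.04, 18.1, 11.6 and 46.1 FPKM in WT libraries (-2.46, SE 0.34; adjusted p = 0.00136). Tigit, a receptor for nectin-like ligands, had 24.8, 23.4, 13.9 and 45.4 FPKM in IL27ra KO libraries and 104, 278, 123, 75.2 and 173 FPKM in WT libraries (-2.41, SE 0.38; adjusted p = 0.00255). All of these groups were apart, and the 4 IL27ra KO libraries, replicate 4 included, were below all WT libraries. Ctla4, which competes with CD28 for its ligands, averaged 21.3 ± 5.32 FPKM in IL27ra KO libraries and 77.7 ± 28.5 FPKM in WT libraries (SD, n = 4 and n = 5; -1.78, SE 0.28; limma, adjusted p = 0.0025). Cd244, the gene of 2B4, and Entpd1, the gene of the ectonucleotidase CD39, fell by 1.2 and 0.99 (limma, adjusted p = 0.0123 and 0.0327). With libraries scaled to equal totals or to the CD8 identity list, neither of these 2 passed, and 4 of the 14 receptors were lower. With the macrophage covariate 0 of the 14 passed. Adjusted p was then 0.147 for Pdcd1, 0.152 for Havcr2, 0.322 for Tigit and 0.184 for Ctla4 (limma).

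Not all inhibitory receptors moved with Lag3. Lair1, a collagen receptor that myeloid cells also carry, rose by 1.62 log2 units (SE 0.31; limma, adjusted p = 0.00768), with 2.42 to 8.03 FPKM in IL27ra KO libraries and 0.16 to 1.76 FPKM in WT libraries. The gene of VISTA, listed as 4632428N05Rik and found on myeloid cells as well, had 18.9 to 21.6 FPKM in IL27ra KO libraries and 11.4 to 12.9 FPKM in WT libraries and rose by 0.73 (SE 0.16; limma, adjusted p = 0.0191). Macrophage markers moved with both, and with the macrophage covariate neither passed (limma, adjusted p = 0.669 and 0.393). That covariate runs with genotype, and 7 of all 10374 genes passed with it. The fit therefore cannot tell macrophage level from genotype. Cd160, Btla, Klrg1, Cd200r1, Cd96 and Cd5 had differences from -1.07 to 0.45 and did not pass. Klrg1, a marker of short-lived effector cells, had 26.7 FPKM in IL27ra KO replicate 4 and 0.94 to 8.03 FPKM in the other libraries. The Entpd1 call was lost on leaving out 1 library in 6 of 9 cases (limma, adjusted p up to 0.118, without IL27ra KO replicate 1) and the VISTA call without IL27ra KO replicate 1, 2 or 3 (highest 0.0855).

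The description of Lag3 as the most reduced of these receptors held by a small margin over Pdcd1, with log2 differences of -3.53 and -3.36. Lag3 was chosen as the most reduced receptor, so its order in the alternatives is a description. Changing the filter left both differences as they were, and the replicate block repeated the values without WT replicate 5 (-3.36 and -3.21). Among 20 alternative ways of processing, Lag3 had the lowest log2 difference of the 15 receptors, itself included, in 17 and was second to Pdcd1 in 3. Those were a pseudocount of 5 (-2.57 for Lag3 and -2.84 for Pdcd1), leaving out IL27ra KO replicate 4 (-3.51 and -3.57), and leaving out that library and the library labelled WT replicate 2 together (-3.19 and -3.35). As a ratio within each library, Lag3 was 60.9%, 29.7%, 34.4% and 19.1% of the Pdcd1 level in IL27ra KO libraries and 43.4%, 59.8%, 37.5%, 39.02% and 47.8% in WT libraries. These ranges overlap. The log2 ratio of Lag3 to Pdcd1 averaged -1.60 ± 0.69 in IL27ra KO libraries (SD, n = 4) and -1.16 ± 0.27 in WT libraries (SD, n = 5). Against the 14 other receptors, the Lag3 ratio of every IL27ra KO library was below that of every WT library for 12, all but Pdcd1 and Tigit. The choice of Lag3 favours such a separation, and the share over all genes was not computed.

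Transcription factors of T cell activation and exhaustion went in both directions. Of 18 tested, 6 fell, 1 rose and 11 did not pass, with a median log2 difference of -0.60. The count was 3 lower and 1 higher with libraries scaled to equal totals, and 2 lower and 3 higher, with a median of 0.0029, with libraries scaled to the CD8 identity list. Tox, a factor that drives the exhaustion programme, had 3.09, 4.62, 4.28 and 5.25 FPKM in IL27ra KO libraries and 27.03, 22.7, 17.6, 14.4 and 32.9 FPKM in WT libraries, and fell by 2.13 log2 units (SE 0.24; limma, adjusted p = 0.00048). Its groups lay well apart. Prdm1, the gene of Blimp-1, fell by 1.30 (SE 0.28; limma, adjusted p = 0.0159), Nr4a2, an orphan nuclear receptor induced by T cell receptor signals, fell by 1.27 (adjusted p = 0.0123), and Ikzf2, the gene of Helios, fell by 1.45 (adjusted p = 0.00851). Nfatc1, a calcium-dependent factor, and Tox2, a relative of Tox, fell by 0.94 and 1.38 (limma, adjusted p = 0.0266 and 0.0232). Maf, a factor of T cells and macrophages that has been placed downstream of interleukin 27, went the other way, with 1.98 to 9.12 FPKM in IL27ra KO libraries and 0.71 to 1.34 FPKM in WT libraries (1.54, SE 0.29; limma, adjusted p = 0.00815). Nr4a1, Egr1 and Egr2, immediate early genes of T cell receptor signalling, had differences of 0.53, 0.56 and 0.65 and did not pass, nor did Batf, Irf4, Tbx21, Eomes, Id2 and Tcf7. The Prdm1 and Nr4a2 calls were lost without IL27ra KO replicate 1 (limma, adjusted p = 0.0712 and 0.0582), and those of Nfatc1 and Tox2 in 5 of 9 fits each (highest 0.115 and 0.0796, without IL27ra KO replicates 2 and 3). With the macrophage covariate 0 of the 18 passed, with adjusted p = 0.228 for Tox and 0.825 for Maf (limma).

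Of 10 tested genes of the interleukin 27 receptor pathway, which count the receptor chains, a ligand subunit and signalling genes, 1 fell and 0 rose, with a median log2 difference of -0.14. Stat3, a transcription factor that the receptor activates, had 23.3, 27.5, 28.5 and 29.6 FPKM in IL27ra KO libraries and 56.5, 74.1, 57.95, 38.1 and 75.2 FPKM in WT libraries. It fell by 1.09 log2 units (SE 0.22; limma, adjusted p = 0.0116), a call that did not survive leaving out IL27ra KO replicate 1 (adjusted p = 0.0572), nor either scaling to equal totals or to the CD8 identity list, the replicate block or the macrophage covariate. Socs3, a feedback inhibitor induced by STAT3, had 52.3 to 66.9 FPKM in IL27ra KO libraries and 15.5 to 46.7 FPKM in WT libraries, without overlap, but its difference of 0.99 did not pass (limma, adjusted p = 0.10). Il6st, the gene of gp130, and Jak1 had differences of 0.19 and -0.06.

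Of 9 tested receptors induced by activation, 3 fell, 0 rose and 6 did not pass, with a median log2 difference of -0.59. Scaled to equal totals or to the CD8 identity list, 2 fell, and with the second scaling 1 rose. Tnfrsf9, the gene of the costimulatory receptor 4-1BB, had 2.87, 7.62, 9.10 and 6.25 FPKM in IL27ra KO libraries and 49.2, 98.7, 42.1, 22.4 and 71.1 FPKM in WT libraries (-2.87, SE 0.38; limma, adjusted p = 0.00108). Tnfrsf4, the gene of OX40, had 2.91, 1.01, 2.04 and 1.74 FPKM in IL27ra KO libraries and 25.0, 72.4, 15.3, 8.12 and 38.01 FPKM in WT libraries (-3.17, SE 0.47; limma, adjusted p = 0.00187). Their values kept the order of Lag3 in the WT libraries. Tnfrsf18, the gene of GITR, fell by 1.49 (SE 0.36; limma, adjusted p = 0.0338), a call lost on leaving out 1 library in 5 of 9 cases (at most 0.137, without IL27ra KO replicate 3). Cd69, an early activation marker, Icos and Cd28 had differences of 0.07, -0.59 and -0.19 and did not pass, and Cd44, a marker of antigen experience, had 0.66 with groups that did not overlap (limma, adjusted p = 0.159). With the macrophage covariate, the calls of Tnfrsf9 and Tnfrsf4 were lost (limma, adjusted p = 0.147 and 0.112). The Lag3 ratio was lower in every IL27ra KO library than in every WT library against 7 of these 9 genes, all but Tnfrsf9 and Tnfrsf4. The choice of Lag3 favours this too, and the share over all genes was not computed.

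Genes with a profile like that of Lag3 over the 9 libraries were found by the root mean square difference of centred log2(FPKM + 1) profiles among 6188 genes with at least 5 FPKM in a group mean. The nearest were Serpina3g at 0.35 log2 units, a serine protease inhibitor of activated T cells, Pdcd1 at 0.40, Rgs16 at 0.40, a regulator of G protein signalling, Tnfrsf4 at 0.41 and Tnfrsf9 at 0.46. Nrn1, a small surface-anchored protein first known from neurons, followed at 0.55, Serpine2 and Serpinb9b, further serine protease inhibitors, at 0.60 and 0.61, Havcr2 at 0.62 and Penk, the precursor of enkephalins, at 0.69. The gene in place 11 was at 0.77 and the median of all genes compared was 1.88. Serpina3g had 5.21, 4.73, 7.83 and 3.43 FPKM in IL27ra KO libraries and 45.8, 131, 23.3, 28.9 and 85.7 FPKM in WT libraries. Rgs16 had 7.76, 6.64, 10.8 and 5.92 FPKM in IL27ra KO libraries and 61.2, 103, 62.6, 31.4 and 147 FPKM in WT libraries. Since the measure takes in the genotype difference for which Lag3 was picked, it picks genes that are lower in IL27ra KO.

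The 10 were chosen over all 9 libraries, so their order within WT is also drawn toward that of Lag3 by the choice and is given as a description. The library labelled WT replicate 2 was the highest WT library for 8 of the 10 genes and WT replicate 5 for the other 2, Rgs16 and Havcr2, while WT replicate 4 was the lowest for 8. Tnfrsf4, Tnfrsf9 and Serpine2 had the order of Lag3 itself, replicates 2, 5, 1, 3 and 4. In 15 alternatives, Serpina3g, Pdcd1, Rgs16, Tnfrsf4, Tnfrsf9 and Havcr2 were among the 10 nearest in 15, Nrn1 in 14, Serpine2 and Serpinb9b in 12 and Penk in 10. Serpina3g and Serpinb9b belong to families of near copies, so part of their reads may be shared with relatives.

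**Figure D5:**
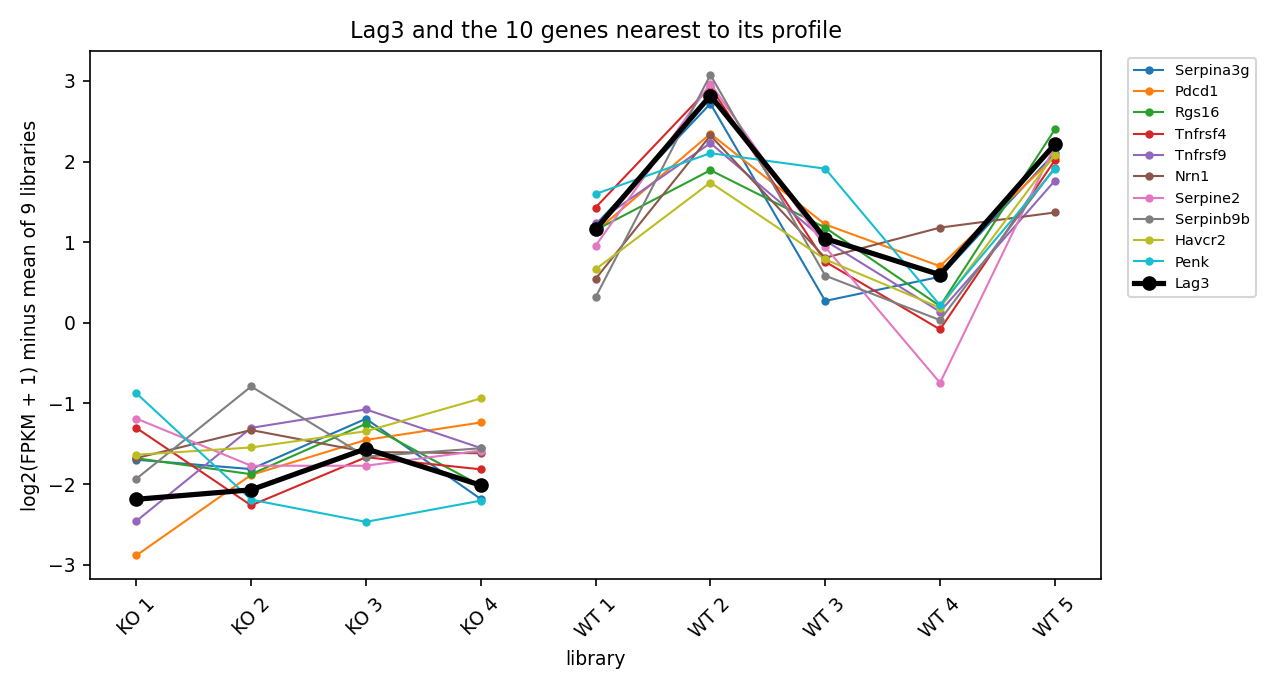
Profiles of Lag3 (black) and of the 10 genes nearest to it, as log2(FPKM + 1) minus the mean of the 9 libraries, over IL27ra KO replicates 1 to 4 (left) and WT replicates 1 to 5 (right). All lie below 0 in IL27ra KO libraries, and 8 of the 10 peak in the library labelled WT replicate 2.

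With profiles centred within each genotype, so that the genotype difference is left out, other genes came nearest. Esd, an esterase, was at 0.17 log2 units, followed by Cox17 and Anxa2 at 0.23 and by Prdx5, Srgn, Atp5k, Bcl2a1d and Tomm7 at 0.24, then Hprt and 1810022K09Rik at 0.25, against a median of 0.67 over all genes compared. Cox17, Atp5k and Tomm7 encode small mitochondrial proteins, Prdx5 a peroxidase and Srgn a proteoglycan of granules. Within the WT group all 10 were highest in the library labelled WT replicate 2 and second in WT replicate 5, as Lag3 was, which follows from how they were chosen. Esd had 18.6, 21.2, 27.2 and 22.2 FPKM in IL27ra KO libraries and 17.7, 50.6, 18.3, 12.6 and 28.03 FPKM in WT libraries, and its difference between genotypes was -0.03 (limma, adjusted p = 0.980). None of the 10 was called between the genotypes, Bcl2a1d coming nearest (-1.39, limma, adjusted p = 0.104). Only Esd was among the 10 nearest in all 15 alternatives, and 2 of the 10 were left without IL27ra KO replicate 4, or without WT replicate 2, 4 or 5.

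The genes beside Lag3 that could be tested did not share its difference. Lag3 lies on mouse chromosome 6 next to Cd4, and in RefSeq the 3 nearest protein-coding genes on the side of Cd4 are Cd4, Gpr162 and P3h3, listed here as Leprel2, and on the other side Ptms, Mlf2 and Cops7a. Cd4, the gene of the related coreceptor, had 0.01, 0.13, 0.13 and 0.09 FPKM in IL27ra KO libraries and 0.28, 0.00, 0.45, 0.34 and 0.00 FPKM in WT libraries, too low to be tested, as was Gpr162. Ptms, the gene of parathymosin, averaged 9.15 ± 3.06 FPKM in IL27ra KO libraries (SD, n = 4) and 11.7 ± 4.50 FPKM in WT libraries (SD, n = 5), a difference of -0.31 (limma, adjusted p = 0.673) that turned to 0.28 with libraries scaled to the CD8 identity list. Mlf2 and Cops7a averaged 62.3 ± 8.83 and 22.7 ± 5.08 FPKM in IL27ra KO libraries and 50.1 ± 9.54 and 17.4 ± 2.58 FPKM in WT libraries, with differences of 0.32 and 0.35 (limma, adjusted p = 0.521 and 0.471). Leprel2 had 0.25 (adjusted p = 0.691).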

How the data were processed

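RNA of CD8+ T cells from B16F10 tumours was sequenced in 9 bulk libraries after an adaptation of SMART-Seq 2, a full-length method with PCR and without molecular identifiers, per the labels. The authors deposited FPKM per gene after TMM normalization, and the submitters' processing notes name TopHat, RSEM, DESeq and build mm9 without versions, roles or order. Strand use is not given in the sources used here, so reads of overlapping genes cannot be told apart. RSEM divides reads between like genes. The table has 23366 genes and 0 columns of other samples. Read numbers are not given with the values. Low FPKM times transcript length (GENCODE M21, 2765 genes) lay near whole multiples of 1 fragment (63.4% to 67.1% within 0.1, against 20% if spread evenly), which gave the fragment estimates. Lengths come from another build, so no coordinates are printed.

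The 10374 genes that averaged 1 FPKM or more were compared as log2(FPKM + 1) with limma 3.58.1 in R 4.3.3 (lmFit, eBayes with trend), IL27ra KO minus WT, with Benjamini-Hochberg adjustment over all genes tested and a threshold of 0.05. Ratios and profile distances were computed in Python 3.11.15 with pandas 2.3.3. The fit was tested on simulated data. The members and lists were chosen with earlier results of these data known. Named were Lag3, Cd3e, Cd8a, Il27ra, all ligand and shedding genes, up to 4 called genes of each other list by smallest p with uncalled genes of like role, the 10 nearest profiles by each centring, the 3 neighbours on each side and the defining markers. A further 9 called genes of the lists (among them Cd244, Entpd1, Lair1, 4632428N05Rik, Prdm1, Tox2 and Nfatc1), and Klrg1, were named after their values were seen. A few genes within this selection are left unreported. Alternatives were pseudocounts of 0.1 and 5, no filter, a filter at 5 FPKM, 3 scalings, library weights, a replicate block, a macrophage marker covariate and each library left out.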

Additional observations from a re-analysis of the deposited data

Results flagged for a closer look

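In 6 of 129 sets of values from 1 genotype, 1 library stood far from the others by Dixon's criterion, and chance alone gives about 1 in 20. Of these, 4 are traces in genes that were otherwise at 0 in the group: Fgl1 at 0.23 FPKM, Clec4g at 0.63 FPKM and Tox2 at 0.15 FPKM in IL27ra KO replicate 1, and Gpr162 at 0.11 FPKM in IL27ra KO replicate 4. Penk had 2.02 FPKM in IL27ra KO replicate 1 and 0 to 0.21 FPKM in the other IL27ra KO libraries. Timp3 had 2.04 FPKM in WT replicate 1 and 0.10 to 0.55 FPKM in the other WT libraries. Lag3 and its ratios to Cd3e and Cd8a had no such library.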

How the results depend on the processing

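Lag3 kept its direction in all alternatives, from -3.93 with a pseudocount of 0.1 to -2.57 with a pseudocount of 5, and -3.77 to -3.21 with 1 library left out; with the macrophage covariate, chosen for Lag3 after seeing the data, it was -5.24. Scaling to equal totals and to the CD8 T cell identity genes moved the median of all genes to 0.29 and 0.54, relative to which Lag3 was at -3.55 and -3.53. Replicate numbers did not pair the libraries: correlations of deviations between libraries of the same number were -0.147 to 0.00268 and 0 of 4 were best with their own number. The replicate block, in which WT replicate 5 has no partner and adds nothing, gave -3.36 for Lag3, -2.59 and -2.74 for its ratios to Cd3e and Cd8a, 17 pathway genes (8 lower, 9 higher) and 273 genes in all.

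The 440 genes called became 219 with a filter at 5 FPKM, 838 with scaling to CD8 identity genes (787 higher, 51 lower, against 325 and 115), 974 with library weights, 7 with the macrophage covariate, 868 without WT replicate 2 and IL27ra KO replicate 4 together, and 226 to 632 with 1 library left out; equal totals gave 525 higher and 65 lower. The 31 pathway genes became 20 with no filter, 0 with the macrophage covariate (28 at an unadjusted p under 0.05) and 14 to 40 with 1 library left out. Of the 10 nearest profiles within genotype, 2 were left with quantile scaling, 5 with CD8 scaling, 2 without both libraries and 2 to 8 with 1 library left out. Of the 31 called pathway genes, 10 kept their call in all alternatives but the covariate: Pdcd1, Havcr2, Tigit, Ctla4, Lair1, Lgals3, Maf, Tox, Tnfrsf4 and Tnfrsf9. The called genes Serpina3g, Rgs16, Nrn1, Serpine2, Serpinb9b and Penk, named for their profiles alone, are not part of this count. The covariate, which runs with genotype, turned the sign of Il27ra (0.66), H2-Aa (-3.07), H2-Ab1 (-2.76), H2-Eb1 (-3.29), H2-DMa (-1.18), H2-DMb1 (-0.83), Cd74 (-2.05), Ctss (-0.99), Ciita (-0.41), Rhbdf2 (-0.016), Leprel2 (-0.083), Mlf2 (-0.46) and Cops7a (-0.018). Rhbdf2, at 0.04, also changed sign with quantile scaling (-0.045), library weights (-0.026), without both libraries (-0.026) and with 1 library left out, namely IL27ra KO replicate 1 or 4 or WT replicate 4 (range over all 9 cases -0.011 to 0.17), and Ptms with CD8 scaling (0.28). The cause of these shifts was not tested. With 15 to 18 estimated fragments behind each IL27ra KO value, differences in Lag3 among IL27ra KO libraries are not detectable at this depth.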
